A study of Mus musculus with 16 samples.

Results

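Changes in microRNAs (miRNAs) were examined in Ctnnb1-mutated liver tumours against control liver of the same phenobarbital arm, in 10 of the 16 arrays of the series. The 10 samples were chosen by their titles: 7 tumours titled as Ctnnb1 tumours, replicates 1 to 7, and 3 non-tumour livers titled as Ctnnb1 controls, replicates 4 to 6. All came from the livers of male mice of strain C3H/HeJ, which is prone to liver tumours, and all carry the label of oral phenobarbital, a promoter of such tumours. The controls are labelled as non-mutated tissue without tumour. The remaining 6 arrays, of 3 Ha-ras-mutated tumours and 3 control livers labelled with water in place of phenobarbital, entered the shared fit. They also helped to set the scaling, the floor and the choice of tested miRNAs. Their own values are given only for an imprinted region and for differences between the arms. The series text describes 1 injection of the carcinogen diethylnitrosamine (10 or 90 µg per g, at an age of 2 or 6 weeks) and, after 2 weeks, a diet with 0.05% phenobarbital or none for 28 to 36 weeks. The sample labels give 27 weeks of diet, and the treatment protocol describes phenobarbital in the drinking water over 28 days. Which of these schedules applied to which sample, whether the controls received the carcinogen, and whether samples came from separate animals is not stated, so p-values measure the spread between these samples, which may be technical. In bulk tissue, fewer cells of a type and less RNA per cell cannot be told apart.

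A miRNA is cut from a hairpin precursor whose arms can each yield a mature strand, and it represses messenger RNAs that pair with its seed, bases 2 to 8 of the mature strand. miRNAs that share a seed form a family, and hairpins that lie close together on a strand are often cut from a single primary transcript, which can also be that of a host gene. Ctnnb1 encodes beta-catenin, the effector of Wnt signalling, which in normal liver is active around the central veins. miR-122 is the main miRNA of hepatocytes, and the let-7 and miR-30 families are expressed in many differentiated tissues.

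The 8 miRNAs that passed the test are shown first, as RefSeq mature sequences (GRCm38.p6), written 5′ to 3′ with the seed in capitals. They fell into 6 seed groups. miR-30a* and miR-30e*, the 3′ strands of their hairpins, share a seed and differ by G18A, counted from the 5′ end of miR-30a*. miR-195 and miR-497 share the seed of miR-15 and miR-16. The mature sequence of miR-199a-3p is identical to that of miR-199b-3p, so their signals cannot be told apart.
miR-199a-3p: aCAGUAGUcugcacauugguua
miR-10a: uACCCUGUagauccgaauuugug
miR-195: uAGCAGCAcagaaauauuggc
miR-497: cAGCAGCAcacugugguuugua
miR-345-5p: gCUGACCCcuaguccagugcuu
miR-30a*: cUUUCAGUcggauguuugcagc
miR-30e*: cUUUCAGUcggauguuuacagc
miR-338-3p: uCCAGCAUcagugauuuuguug

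The 3 tested miRNAs with the seed of miR-195 that did not follow it are shown for comparison with it. miR-195 and miR-16 have the same first 9 bases and differ by A10G and G11U over 21 positions, counted from the 5′ end of miR-195.
miR-16: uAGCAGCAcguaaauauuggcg
miR-15a: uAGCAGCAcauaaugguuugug
miR-15b: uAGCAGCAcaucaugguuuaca

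The last set comes from 6 miRNAs of an imprinted region of chromosome 12 that were detected only in the phenobarbital arm. No seed is shared among them.
miR-127: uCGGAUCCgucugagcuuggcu
miR-136: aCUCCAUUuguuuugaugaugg
miR-299*: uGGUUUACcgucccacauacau
miR-376b: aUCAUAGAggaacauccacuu
miR-377: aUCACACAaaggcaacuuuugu
miR-379: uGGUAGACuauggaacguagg

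Levels are log2 scaled signals of Agilent one-colour arrays, each array scaled to its own 75th percentile over probes detected on all 16 arrays. Of 566 mouse miRNAs on the array, 73 were detected on all 10 arrays, 68 on some and 425 on none. Between 95 and 117 were detected on a tumour array and between 85 and 101 on a control array. The 75th percentiles before scaling lay between 463 and 877 on tumour arrays and between 386 and 644 on control arrays, and no spot was saturated. The number of arrays limits the precision. Across the tested miRNAs, tumour arrays correlated with each other at 0.943 to 0.989 and control arrays at 0.982 to 0.993. Tested were the 96 miRNAs that at least 1 of the 4 groups showed as detected on each of its arrays. Signals under 4.64 were raised to that floor.

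Compared with control liver, Ctnnb1 tumours held less of 8 miRNAs and more of none, at a limma adjusted p under 0.05. The 8 are 8.33% of the 96 tested. They were miR-199a-3p, of mesenchymal cells, miR-10a, encoded among the Hoxb genes, the clustered pair miR-195 and miR-497, known to restrain the cell cycle, the 3′ strands miR-30a* and miR-30e*, and miR-338-3p and miR-345-5p. Their folds lay between 1.30 and 2.24. Over all 96 the median log2 fold change was -0.05, with 54 below 0 and 41 above. At an unadjusted p under 0.05 there were 21, of which 20 were lower and 1, miR-1224, was higher. In 14 of the 96 (14.6%), the 7 tumours and 3 controls did not overlap, 13 of them lower and 1 higher in tumours.

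miR-199a-3p stood at 5.09, 5.53 and 6.11 (lowest, median and highest tumour) against 6.84, 6.78 and 6.65 in controls 4, 5 and 6. Every tumour lay below every control, and tumour 1 was nearest to them. The means were 5.60 ± 0.34 (SD, n = 7) and 6.76 ± 0.10 (n = 3), a 2.24-fold difference (log2 fold change -1.16, SE 0.21, adjusted p = 0.00187). miR-10a stood at 5.29, 5.58 and 6.13 in tumours and at 6.51, 6.49 and 6.42 in the controls. Again the groups did not overlap and tumour 1 was the highest tumour. The log2 fold change was -0.88 (SE 0.15, adjusted p = 0.00158), or 1.84-fold. miR-195 stood at 4.96, 5.05 and 5.44 in tumours and at 5.89, 5.92 and 5.92 in controls, which spread by an SD of only 0.015 against 0.19 in tumours. The groups were apart, and the log2 fold change was -0.78 (SE 0.13, adjusted p = 0.00158), or 1.72-fold. miR-497, cut from the same transcript, stood at 5.05, 5.18 and 5.81 in tumours and at 5.95, 5.80 and 5.89 in controls. Tumour 5 lay just above the lowest control, and the other 6 tumours lay below all 3. The log2 fold change was -0.63 (SE 0.16, adjusted p = 0.0178), or 1.55-fold.

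The other 4 lay close to the floor. miR-30a* stood at 4.65, 4.90 and 5.05 in tumours and at 5.26, 5.42 and 5.41 in controls, with no overlap (log2 fold change -0.48, SE 0.10, adjusted p = 0.00382). miR-30e* stood at 4.64, 4.68 and 4.80 against 5.04, 5.07 and 5.17, with no overlap and 2 tumours at the floor (-0.40, SE 0.08, adjusted p = 0.00318). miR-338-3p, encoded within the kinase gene Aatk, stood at 4.64, 4.70 and 4.96 against 5.12, 5.14 and 5.12, with no overlap and 3 tumours at the floor (-0.37, SE 0.10, adjusted p = 0.0237). These 3 miRNAs thus separated the groups within a narrow range of signal. miR-345-5p stood at 4.64, 4.84 and 5.29 against 5.16, 5.48 and 5.37, and tumour 1 overlapped the controls while 2 tumours were at the floor (-0.48, SE 0.13, adjusted p = 0.0237). Of the 7 tumours, miR-30a* was detected on 6, miR-30e* on 5, miR-338-3p on 4 and miR-345-5p on 4. These 4 thus entered the test only through other groups. For miR-30a*, miR-338-3p and miR-345-5p these included the phenobarbital controls, a selection that favours lower values in tumours. miR-30e*, detected on 2 of 3 phenobarbital controls, entered only through the 3 untreated controls, and the effect of that was not tested. When all 566 mouse miRNAs were tested, miR-30a* (adjusted p = 0.0111) and miR-30e* (0.00212) were still called, while miR-338-3p (0.0703), miR-345-5p (0.147) and miR-497 (0.139) were not. That setting cannot settle the effect of the selection. Of the 566, 425 were detected on none of the 10 arrays, and their values enter the variance that the fit shares.

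**Figure D1:**
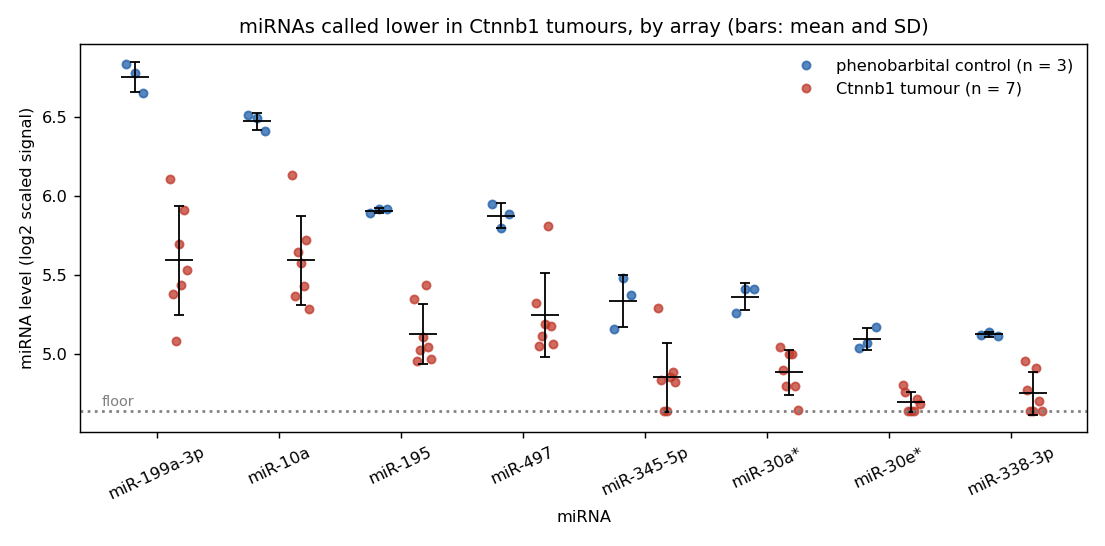
Level of the 8 called miRNAs on each array (y axis, log2 scaled signal; points are arrays, bars the mean and SD of 3 phenobarbital controls and 7 Ctnnb1 tumours, dotted line the floor of 4.64). Groups overlap only for miR-497 and miR-345-5p, where 1 tumour each reaches the controls.

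Some of these calls depended on single control arrays, and all 8 on how arrays were scaled. With each of the 10 arrays left out in turn, 5 stayed called, namely miR-10a, miR-30a*, miR-30e*, miR-195 and miR-199a-3p. miR-338-3p was not called without control 4, 5 or 6 (adjusted p = 0.0900, 0.124 and 0.0973), miR-345-5p without control 5 or 6 (0.163 and 0.121), and miR-497 without control 4 or 6 (0.0900 and 0.0831). Without tumour 1, the tumour nearest the controls for miR-199a-3p and miR-10a, 18 miRNAs were called, all lower, and without control 6 there were 5. All 7 tumours were hybridised on slide 1, controls 4 and 5 on slide 2 and control 6 on slide 3, so slide and group can be parted only through the Ha-ras arm. With slide as a fixed block the 8 had log2 fold changes of -1.13 to -0.32 and none was called (adjusted p from 0.135 to 0.648). The only miRNA called in that setting was let-7e, which was lower. When arrays were scaled to all mouse probes, the median of the 96 went from -0.05 to 0.10, limma called 0, and 4 had an unadjusted p under 0.05. The 8 then lay between -0.93 (miR-199a-3p, adjusted p = 0.390) and -0.23 (miR-30e*, adjusted p = 0.684), with miR-10a at -0.61. By quantile scaling, the same 8 were called.

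Each miRNA is read by more than 1 probe, and for some the averaged values above lie nearer to 0 than those of the brighter probe. Of the 96 tested, 93 had 2 probes. In 42 all probes were detected on all 10 arrays, in 31 only some, and in 23 none. None of the 8 called miRNAs had every probe detected on all 10 arrays, and a probe at the floor on all arrays pulls the mean of the pair towards 0. For miR-345-5p, the brighter probe gave a 1.95-fold difference (log2 fold change -0.97) against 1.40-fold for the average. Its dimmer probe was at the floor on all 10 arrays. The brighter probe of miR-30e* gave 1.73-fold (-0.79) against 1.32-fold, and that of miR-338-3p 1.68-fold (-0.75) against 1.30-fold. Both of their dimmer probes were also at the floor throughout. The brighter probe of miR-30a* gave 1.62-fold (-0.70) and that of miR-497 1.77-fold (-0.83). For the 3 miRNAs with the largest differences the 2 probes lay closer: miR-199a-3p stood at -1.24 and -1.08 by its brighter and dimmer probe, miR-10a at -0.91 and -0.85, and miR-195 at -0.85 and -0.71. Of the 7 tumours, their dimmer probes were detected on 6, 4 and 1, in the same order. That of miR-195 was detected on 2 of 3 controls. The floor thus limits these dimmer values, least for miR-199a-3p.

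On the brighter probe, miR-30e* stood at 4.64, 4.73 and 4.96 (lowest, median and highest tumour) against 5.44, 5.50 and 5.70 in controls 4, 5 and 6. miR-345-5p stood at 4.64, 5.04 and 5.94 against 5.68, 6.32 and 6.11, where tumour 1 was again the single overlap. With the brighter probe alone, a setting chosen after the data were seen, 11 miRNAs were called lower and none higher. They were the same 8 with let-7g (-0.47, adjusted p = 0.0415), miR-30c (-0.64, adjusted p = 0.0174) and miR-139-5p (-0.84, adjusted p = 0.0174), an intronic miRNA of Pde2a. In the table of processed values that the submitters deposited, whose handling of low values is unknown, the 4 low miRNAs lay further from 0: miR-30e* was at -1.95 there, miR-338-3p at -1.60, miR-345-5p at -1.48 and miR-30a* at -0.96. Only miR-199a-3p (-1.25) and miR-10a (-0.95) were called from those values. Among the 41 pairs with both probes detected on all 10 arrays, 36 had the same sign, and the probes of a pair differed by a median of 0.06 in log2 fold change.

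**Figure D2:**
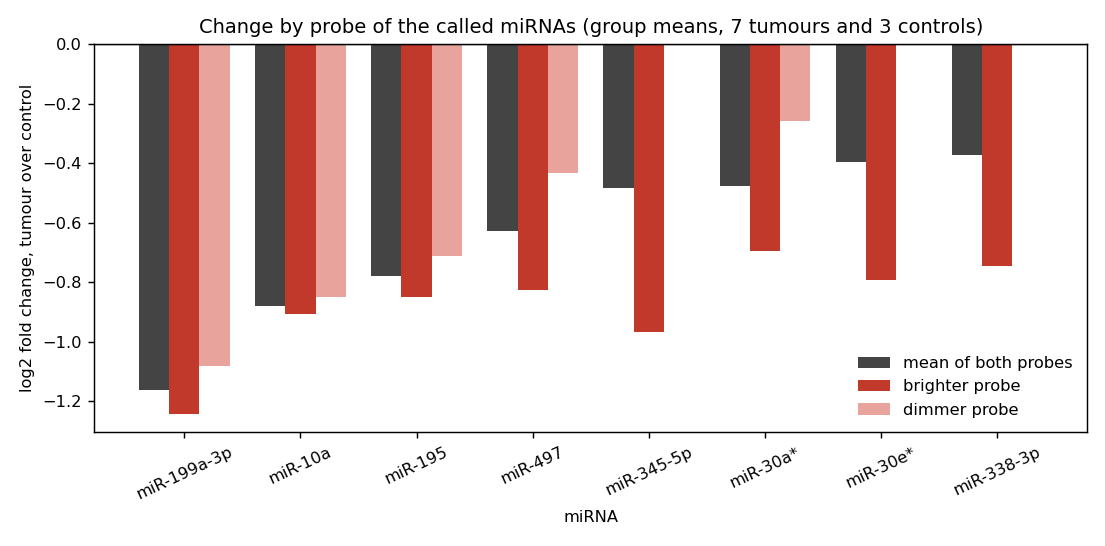
Log2 fold change, tumour over control (y axis, bars from 0; 7 tumours, 3 controls), of the 8 called miRNAs by the mean of both probes, the brighter and the dimmer probe. The brighter probe lies between -1.24 for miR-199a-3p and -0.70 for miR-30a*, and the dimmer probe has no bar for miR-345-5p, miR-30e* and miR-338-3p, where it was at the floor on all arrays.

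By family, RefSeq sequences were matched for 84 of the 96, in 56 seed groups, of which 14 held 2 or more tested miRNAs. The let-7 family, whose members restrain growth genes such as Ras, had 9 of 9 tested members below 0 and 0 of 9 called, with a median of -0.32 beside -0.05 for all 96. let-7e was at -0.52 (SE 0.28, adjusted p = 0.294), with tumours at 5.30, 5.56 and 5.87 (lowest, median, highest) and controls at 6.41, 5.99 and 5.92. let-7a was at -0.42 (SE 0.16, adjusted p = 0.100), with tumours at 9.50, 10.21 and 10.48 and controls at 10.55, 10.54 and 10.62. In both, all 7 tumours lay below the 3 controls, as they did for let-7f. let-7c was at -0.32 (SE 0.10, adjusted p = 0.0533) and let-7g at -0.41 (SE 0.13, adjusted p = 0.0604). At the other end, let-7i (-0.01) and miR-98 (-0.05) were within 1 SE of 0. let-7a and let-7c differ by A19G, and let-7a and let-7e by U9G, counted from the 5′ end of let-7a, and cross-hybridisation between such close sequences was not tested.

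The miR-30 family, which targets genes of epithelial plasticity, had 5 of 5 tested guide strands below 0 and 0 of 5 called (median -0.25). miR-30c was at -0.57 (SE 0.17, adjusted p = 0.0533) and its tumours at 6.01, 6.20 and 6.87 against 6.84, 6.95 and 6.95, where 6 of 7 tumours lay below the controls. miR-30a, miR-30e, miR-30d and miR-30b were at -0.39, -0.25, -0.24 and -0.13, and their tumours overlapped the controls. For the hairpins with both strands tested, both strands of miR-30a and of miR-30e lay below 0: miR-30a was at -0.39 (SE 0.22) and miR-30a* at -0.48 (SE 0.10), and miR-30e at -0.25 (SE 0.23) and miR-30e* at -0.40 (SE 0.08). The called strands were those with the smaller SE. Their guides varied more among tumours, with SDs of 0.46 for miR-30a and 0.46 for miR-30e against 0.14 and 0.06 for the 3′ strands. The floor holds down the SDs of the 3′ strands, whose dimmer probes were at the floor in all 7 tumours. On the brighter probe the SDs were 0.34 for miR-30a and 0.47 for miR-30e, against 0.29 for miR-30a* and 0.13 for miR-30e*. Of the other hairpins, miR-22 and miR-22* were at -0.09 and -0.10, and miR-140 and miR-140* at -0.29 and 0.16, none called.

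The family of miR-15, miR-16, miR-195 and miR-497, with a shared seed and a known role in holding back the cell cycle, was the most divided of the 14 seed groups, with values from -0.78 to 0.28. Of its 5 tested members, 2 were called lower and the other 3 were above 0: miR-15a at 0.07 (SE 0.13), miR-16 at 0.10 (SE 0.16) and miR-15b at 0.28 (SE 0.21). miR-15b stood at 7.34, 7.89 and 8.43 in tumours against 7.64, 7.55 and 7.54 in controls, so that the tumours lay on both sides of the controls. miR-15a stood at 8.57, 8.80 and 9.01 against 8.78, 8.70 and 8.71, also on both sides. The called pair lies together on chromosome 11, and miR-15a, miR-15b and miR-16 lie in other clusters.

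Smaller families had 0 members called. All 3 of miR-29, which targets collagen genes, were below 0 (-0.38, -0.16 and -0.06), and miR-29a (adjusted p = 0.0850) had no overlap between groups. Both of miR-26 and both of miR-101 were below 0, miR-101a at -0.57 (SE 0.19, adjusted p = 0.0701). Both of miR-27 were above 0 (0.31 and 0.14), as were 3 of 4 of the miR-17 group, a proliferation-linked family, with a median of 0.08, and both of miR-19. Of these, miR-19b was at 0.02, and at -0.04 with the brighter probe. miR-10a was called, while miR-99a, of the related miR-99 branch with another seed, was at -0.12 (SE 0.13).

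**Figure D3:**
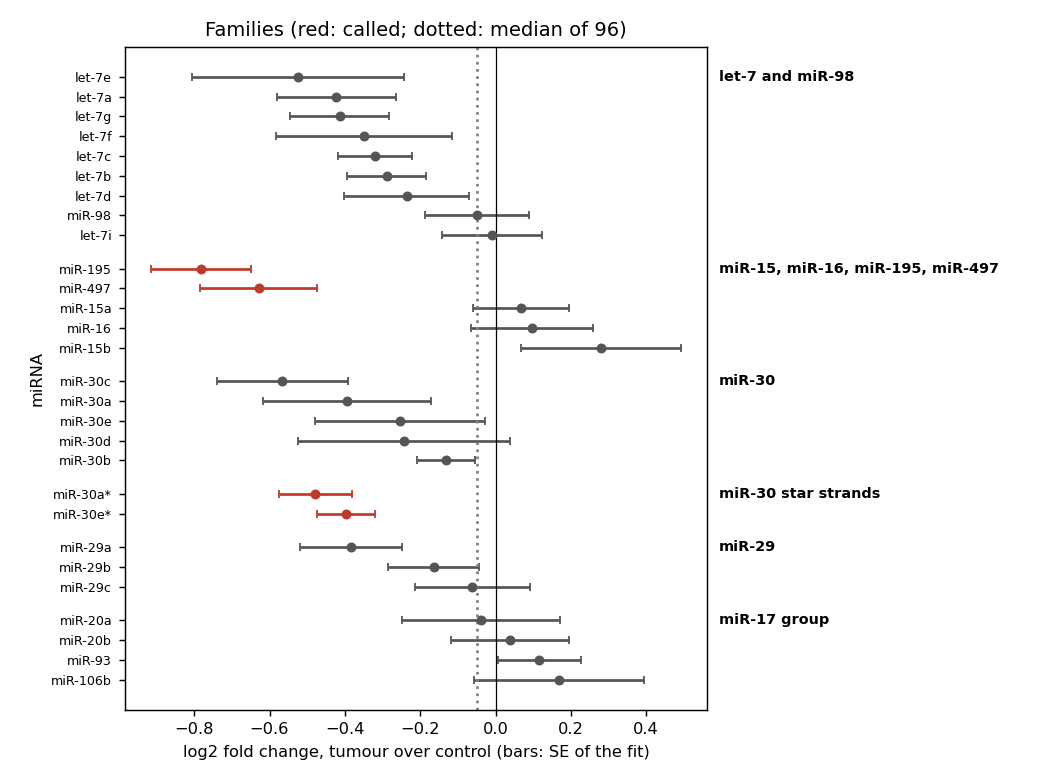
Log2 fold change, tumour over control (x axis; points with the SE of the fit, 7 tumours against 3 controls), of the members of 6 families or strand groups, with the median of all 96 at -0.05 as a dotted line. let-7 and miR-30 members lie below 0, and the family of miR-15, miR-16, miR-195 and miR-497 lies on both sides, from -0.78 to 0.28.

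By locus, hairpins with starts within 10 kb on 1 strand were grouped. Of 18 loci with 2 or more hairpins that hold tested miRNAs, 14 had all tested miRNAs on 1 side of 0, 9 below and 5 above. Some of these loci share a mature miRNA, so they are not independent. Most of the 18 hold only 2 tested miRNAs, whose signs would often match even if unrelated. Over all 96 tested, 54 were below 0 and 41 above, and the share expected of unrelated miRNAs was not worked out. Mir195a and Mir497, at chr11:70234717-70235135 (GRCm38.p6, plus strand, 419 bases, no host gene on that strand), were both called. Mir10a, at chr11:96317165-96317274, and Mir345, at chr12:108836973-108837068, also lay in no gene of their strand. Mir30c-1 and Mir30e, in Nfyc on chromosome 4, a gene of a CCAAT-binding factor, held miR-30c, miR-30e and miR-30e*, all below 0, with 1 of 3 called. Mir338 lies in Aatk, on its strand. miR-199a-3p has 2 hairpins, one in the noncoding RNA gene Dnm3os, opposite Dnm3, and one opposite Dnm2. The array cannot say which was transcribed, or whether the signal came from the identical miR-199b-3p. Mirlet7a-1, Mirlet7d and Mirlet7f-1 on chromosome 13 had 3 of 3 below 0 (-0.42, -0.24 and -0.35). The Mcm7 locus, host of miR-106b, miR-93 and miR-25 in a gene of DNA replication, had 3 of 3 above 0, at 0.17, 0.12 and 0.09, none called.

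Called miRNAs lay both inside and outside host genes. Of 36 miRNAs with every hairpin in a gene on its strand, 2 were called (median -0.06). Of 10 with only some hairpins hosted, 1 was called (median -0.24), and of 36 with none hosted, 5 were called (median -0.01). Over all 82 matched to a RefSeq hairpin, 8 were called (median -0.05), and the host groups were not compared by a test. The remaining 14 of the 96 were not matched to a RefSeq hairpin. In the liver-cell miRNA locus of miR-192 and miR-194 the members were at -0.21 and 0.02. miR-193 was at -0.45 (SE 0.17, adjusted p = 0.100), and miR-365, which has hairpins on chromosomes 11 and 16, was at -0.57 (SE 0.36, adjusted p = 0.360).

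The imprinted region of chromosome 12, whose tested miRNAs lie between Mir127 and Mir377, holds one of the largest groups of miRNA hairpins in the mouse genome. It is read from the maternal copy, and its levels varied widely between arrays. Of its 7 tested miRNAs, 0 were called. Of these, miR-127, miR-299*, miR-376b, miR-377 and miR-379 were detected on all 7 tumours and on 2 of 3 controls and so entered the test only through the tumours, a selection that favours values above 0. miR-379 stood at 5.16, 6.40 and 7.31 in tumours (lowest, median, highest) and at 5.92, 4.64 and 6.35 in controls 4, 5 and 6 (log2 fold change 0.61, SE 0.44, adjusted p = 0.430). miR-136 stood at 5.00, 5.64 and 6.89 against 5.82, 4.73 and 6.29 (0.26, SE 0.38, adjusted p = 0.747). The tumours lay on both sides of controls 4 and 6, and control 5 was at or near the floor. miR-376b stood at 4.64, 5.56 and 6.77 against 5.29, 4.64 and 5.92 (0.29, SE 0.39, adjusted p = 0.703). The rest, miR-127, miR-299* and miR-377, were at 0.27, 0.39 and 0.23.

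The same arrays were high or low across this region. Tumour 3 was the highest tumour for 6 of the 6 miRNAs named here, control 6 the highest control for 6 of 6 and control 5 the lowest for 6 of 6. Tumour 6 was the lowest tumour for 4 and tumour 1 for 2. Without control 5, miR-136 turned to -0.18 and miR-376b to -0.03. miR-494, also of this region, was detected on all 16 arrays. Control 6 was its highest and control 5 its lowest phenobarbital control too, but its highest tumour was tumour 7, at 8.04, and its highest array was untreated control 3, at 12.29.

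On the 6 arrays without phenobarbital, these 6 miRNAs were at the floor and detected on 0 arrays, in tumours and controls alike, and no other miRNA of the 96 was at the floor on all 6. The region has 73 miRNAs on the array by name, most of them too dim for the test. Of the 73, 23 were detected on at least 1 of the 10 phenobarbital arrays, and 1, miR-494, on any of the 6 others. The number detected per array was 8 to 23 in the 7 tumours, 9, 2 and 15 in controls 4, 5 and 6, and 1 on each of the 6 arrays without phenobarbital. Each of the 3 slides held phenobarbital arrays and others, but on slide 1 the only other array was Ha-ras tumour 1. The part of slide in this pattern was not tested. Phenobarbital and any difference in carcinogen dose or age between the arms cannot be told apart, and no test was made of this pattern, which was chosen after the values were seen.

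**Figure D4:**
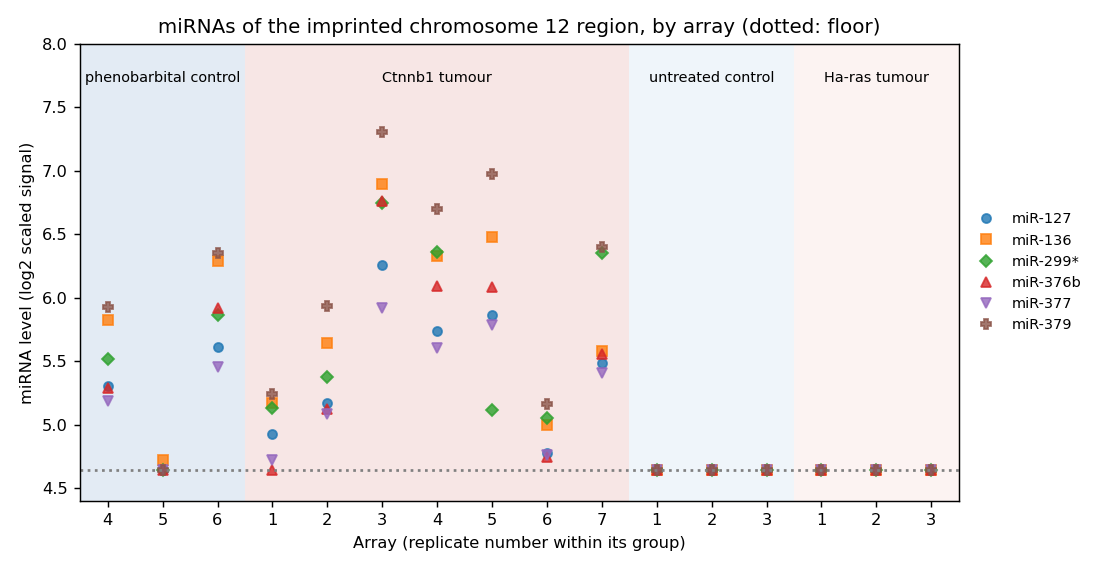
Level of 6 miRNAs of the imprinted chromosome 12 region (y axis, log2 scaled signal; markers are miRNAs) on each of 16 arrays in 4 groups (x axis, replicate number), with the floor of 4.64 as a dotted line. Levels rise up to 7.31 in tumour 3, are near the floor in phenobarbital control 5, and are at the floor on all 6 arrays without phenobarbital.

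By signal, the 96 were cut into 3 classes of 32 by mean level over the 10 arrays, which does not compare abundance between miRNAs because probes differ in affinity. The low class held 6 of the 8 calls (18.8% of its 32), the middle class 2 (6.25%) and the high class 0. The medians went the other way: 0.02 in the low class, -0.07 in the middle and -0.13 in the high class, where 22 of 32 were below 0. The median SD between tumours was 0.19, 0.35 and 0.28 in the 3 classes, and 0.09, 0.14 and 0.09 between controls, so tumours varied more than controls in each. Values at the floor hold down the spread in the low class, where only 11 of 32 miRNAs were detected on all 10 arrays, against 30 in the middle and 32 in the high class. In the high class, let-7a, let-7f, miR-29a and miR-126-3p were lower without overlap and miR-1224 higher without overlap, and none of these 5 was called. With the floor halved, 7 of the 8 stayed called, and with the floor doubled 5, and the part of the floor in the split of calls between classes was not tested further.

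**Figure D5:**
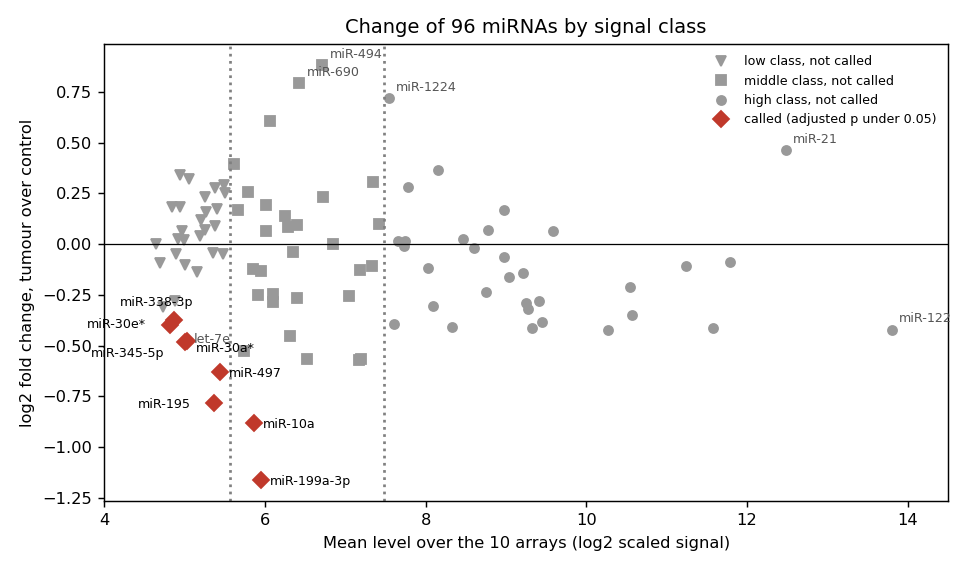
Log2 fold change, tumour over control (y axis), against the mean level over 10 arrays (x axis, log2 scaled signal) of the 96 tested miRNAs, with the called in red and dotted lines between the signal classes. Of the 8 called, 6 lie in the low class and 2, miR-199a-3p and miR-10a, in the middle class.

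No miRNA was called higher by the levels used here, while the scanner's total gene signal gave 1, miR-361. miR-1224 had the only separation upwards, with tumours at 7.29, 7.69 and 8.18 (lowest, median, highest) against 7.23, 6.85 and 7.04 in controls (log2 fold change 0.72, SE 0.29, adjusted p = 0.130). Of its 4 probes, 3 gave 0.93, 0.99 and 0.96 and the last was at the floor on every array. It was called, at a higher level in tumours, when only the 10 arrays were fitted and when slide was a random block. miR-21, a miRNA that is high in many tumours, was at 0.46 (SE 0.23, adjusted p = 0.261), with tumours at 12.11, 12.47 and 13.40 against 12.20, 11.99 and 12.28. Its tumours overlapped the controls, and tumour 7 was the highest. miR-494 (0.88, SE 1.03) and miR-690 (0.79, SE 0.57) had the largest values above 0 with wide errors (adjusted p = 0.643 and 0.430), and tumour 7 was the highest tumour for both. miR-709, miR-27a and miR-34a were at 0.36, 0.31 and 0.23, none called.

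The labelled tissue was checked against markers. All 8 hepatocyte-enriched miRNAs were tested, 0 of 8 were called, 6 were below 0, and their median was -0.12. Their summed signal was 14205 to 26875 in tumours and 22405 to 25604 in controls. miR-122 stood at 13.09, 13.72 and 14.19 in tumours against 13.95, 14.22 and 14.11 (log2 fold change -0.42, SE 0.20, adjusted p = 0.239). Of the 5 biliary miRNAs, miR-200b was detected on 1 tumour and 1 control array, and the remaining 4 on none. The endothelial miR-126-3p stood at 9.05, 9.29 and 9.58 against 9.60, 9.61 and 9.61, without overlap (-0.28, SE 0.12, adjusted p = 0.154). Of 3 leukocyte miRNAs tested, 0 were called (median 0.07), and the erythroid miR-451 and miR-144 were at -0.41 (SE 0.42) and -0.25 (SE 0.43).

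Of 6 miRNAs listed for mesenchymal cells, 2 were tested, miR-199a-3p itself and miR-143. Their summed signal was 58.9 to 94.2 in tumours and 134 to 144 in controls, of which miR-199a-3p alone made up 33.9 to 69.2 and 101 to 115, so the sum mostly repeats its fall. miR-143, of smooth muscle and stroma, was at -0.31 (SE 0.16, adjusted p = 0.272) and near or at the floor in all 7 tumours, against 4.88, 4.90 and 5.07 in controls. Of the other 4 on the list, miR-199a-5p, miR-214, miR-145 and miR-218, 0 were detected on any of the 10 arrays. The part of these cells in the falls of the 8 called miRNAs was not tested.

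The tumour effect differed between the arms for 2 of the 96 miRNAs (2.08%), by a limma test of the difference. Both were miRNAs at or near the floor in Ctnnb1 tumours and their controls, and both entered the test only because all 3 Ha-ras tumours, where they were high, detected them. When all 566 mouse miRNAs were tested, the differences had adjusted p = 5.10e-05 for miR-146b and 0.000325 for miR-31. The wider test cannot settle the effect of this selection, since miRNAs that were not detected enter its shared variance. miR-146b, which dampens NF-kappaB signalling, was at 4.64 on all 10 arrays of the phenobarbital arm, and at 8.26, 9.17 and 7.67 in Ha-ras tumours (difference of the log2 fold changes -3.56, SE 0.32, adjusted p = 1.44e-06). miR-31 was at the floor except for 4.84 in tumour 1, 4.99 in control 5 and 4.65 in control 6, and at 5.98, 5.99 and 5.88 in Ha-ras tumours (difference -1.08, SE 0.15, adjusted p = 0.000168). None of the 8 called miRNAs was called in the difference. Set side by side, miR-199a-3p was at -1.16 in the Ctnnb1 comparison and -1.51 in the Ha-ras comparison (difference 0.35, SE 0.32), miR-10a at -0.88 and -1.07 (0.19, SE 0.23), and miR-195 at -0.78 and -0.47 (-0.31, SE 0.21). The widest gap of the 8 was that of miR-345-5p, at -0.48 and 0.21 (difference -0.69, SE 0.20, adjusted p = 0.112). miR-30a* was at -0.48 and -0.04 (difference -0.44, SE 0.15, adjusted p = 0.164).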

How the data were processed

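Per the file headers, the intensity values come from Agilent Feature Extraction 10.7.3.1, run under protocol miRNA_107_Sep09. Per the labels' protocols, 25 ng of total RNA was labelled per array. The background-subtracted spot intensity was used as deposited. The deposited series table of log2 values served as an alternative; the submitters' processing notes name R 2.14.1, with a normalisation not given in the sources used here.

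Of 12493 spots, 11540 were not controls. Outlier spots were left out, and the spots of each of 1672 mouse probes averaged. Detection needed more than 1 in 2 spots of a probe well above background, and 1 such probe for a miRNA. Signals were scaled to the 75th percentile over 117 probes detected on all 16 arrays, floored at 24.96 (4.64 in log2), which is the arrays' median of their lowest detected signals, taken to log2, and averaged over the probes of a miRNA. Groups came from sample titles. Of the mouse miRNAs, 96 were detected on each array of 1 group or more, and these were tested by limma 3.58.1 under R 4.3.3 (lmFit, eBayes) in 1 fit of 4 group means over 16 arrays, with Benjamini-Hochberg adjustment over the 96 and a threshold of 0.05. The fit was tested on simulated data.

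Named are all called miRNAs, up to 10 with the largest and smallest log2 fold change among those detected on all 10 arrays, per list, the tested members with the lowest p (4 at most), and those called in the difference between arms. Members and lists were chosen with earlier results of these data known. Array names were matched by hand to RefSeq names (GRCm38.p6), 84 of 96. Host genes are RefSeq genes that hold a hairpin on its strand. No miRNA was detected on all arrays of one group and on none of the other, so no bounds were needed. Alternatives were other scalings, the scanner's total gene signal, the deposited values, normexp, the floor, filters, slide and replicate blocks, and each array left out.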

Additional observations from a re-analysis of the deposited data

Results flagged for a closer look

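In tumour 5, let-7a lay at 9.50, apart from the next tumour at 10.12, and miR-365 at 5.37, apart from the next at 6.76. The same tumour was the highest for miR-497, at 5.81 against 5.33 for the next. In tumour 1, miR-345-5p lay at 5.29, above the next tumour at 4.89, and miR-31 at 4.84, while the other 6 tumours were at the floor. Each of these 5 values passed Dixon's 95% critical value for 7 samples. For miR-31 the ratio was 1 by construction, since any value above the floor would pass. Chance flags about 1 in 20 groups, and 8 of the 96 tested miRNAs had such a value among the tumours.

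The effect of the tumour differed between the arms for miR-146b, by -3.56 (Ctnnb1 minus Ha-ras, adjusted p = 1.44e-06), and for miR-31, by -1.08 (adjusted p = 0.000168). Both differences depend on the floor in the phenobarbital arm, and both miRNAs entered the test only through the Ha-ras tumours, where they were high.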

How the results depend on the processing

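The count of 8 called, all lower, became 0 with scaling over all mouse probes, 4 when the median of detected probes set the scale, 2 with the deposited values, 4 with normexp, 4 of 73 when only miRNAs detected on all 10 arrays were tested, 5 with all 566 mouse miRNAs, 1 with slide as a fixed block and 20 with slide as a random block (19 lower and 1, miR-1224, higher; estimated correlation -0.12). Quantile scaling gave the same 8. The total gene signal gave 6, of which 5 were lower and 1, miR-361, was higher, and 4 of the 8 stayed called. When only the 10 arrays were fitted, 87 were tested, 7 of the 8 among them. Of these 87, 6 were called, 5 lower and 1, miR-1224, higher, and 5 of the 8 stayed called. Leaving out each array in turn gave 5 to 18. The replicate block gave 0 called, with all 8 below 0. Tumours and controls share the numbers 4, 5 and 6, and the deviations of same-numbered samples correlated at 0.24, -0.06 and -0.77. With only 3 controls, these values cannot settle whether such samples are paired. The 8 lay below 0 wherever they were tested under these, and 4 of them were not tested among the 73. The count of 2 in the difference between arms became 1 with the deposited values and with normexp. It became 0 when only miRNAs detected on all arrays were tested. With the brighter probe, an alternative chosen after the data were seen, it became 4, and leaving out arrays gave 2 to 3. miR-31 was the one lost with the deposited values (adjusted p = 0.424) and with normexp (0.125). It was also not called with the total gene signal (0.132). Its difference was -1.71 (adjusted p = 0.00645) with the floor halved and -0.44 (5.31e-09) with the floor doubled, so its p-value depends on the floor.

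Over 58 named miRNAs, 20 of the alternative values turned sign, all in miRNAs not called, and the cause was not tested. These 58 do not cover every miRNA given above. Outside them, miR-19b, miR-194 and miR-24, at 0.015, 0.016 and 0.026, were at -0.043, -0.062 and -0.028 with the brighter probe. With slide as a fixed block miR-122 was at 0.0080, miR-144 at 1.14, miR-22 at 0.36, miR-30d at 0.55, miR-30e at 0.014, miR-34a at -0.20, miR-451 at 1.22 and miR-99a at 0.0027. With the replicate block miR-144 was at 0.077 and miR-22 at 0.058. miR-22 was at 0.13, 0.062 and 0.14 with scaling over all probes, on the median and by quantiles, and miR-22* at 0.036 with all probes. With normexp miR-140* was at -0.011, miR-221 at -0.040 and miR-27b at -0.023. Leaving out arrays gave -0.18 to 0.60 for miR-136, -0.032 to 0.61 for miR-376b and -0.15 to 0.025 for miR-31, each turning only without phenobarbital control 5. Signal near the floor limits what can be said of miR-345-5p, miR-338-3p, miR-30e* and miR-30a*. It also limits the dimmer probes of miR-195 and miR-497, each detected on 1 of 7 tumours. Of the mouse miRNAs, 425 were detected on none of the 10 arrays.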
